A study of Mus musculus with 8 samples.

Results

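Chemokine ligands and their receptors were examined in growing and control gastrocnemius muscle of the mouse. A gene was included when its symbol follows the numbered naming of the CC, CXC, CX3C or XC family (for example Ccl2, Cxcl10, Ccr2 or Cx3cr1), and 55 of the 30743 genes measured qualified, 35 ligands and 20 receptors. RNA was taken from the gastrocnemius of 4 double transgenic (DTG) mice, which carried both 1256[3Emut]Mck-rtTA and TRE-myrAkt1, and of 4 single transgenic (MckrtTA) mice, which carried 1256[3Emut]Mck-rtTA alone. In the DTG mice, doxycycline switches on a myristoylated, constitutively active Akt1, a growth-promoting kinase, and the Mck promoter that drives rtTA restricts this to skeletal muscle fibers. All 8 mice shared the strain label Myo L8, were males treated from 4 months of age, received doxycycline at 0.5 mg/ml in drinking water for 2 weeks, so that the drug is common to both groups, and were starved overnight before the muscles were collected. The comparison asks how chemokine transcripts differ in muscle after acute Akt1 activation.

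Chemokines are small secreted proteins that attract leukocytes along a concentration gradient. They act on receptors with a membrane-spanning bundle that signal through Gi proteins, and most receptors take several ligands. Inflammatory chemokines are made on demand by macrophages, endothelium, fibroblasts and injured parenchyma, while homeostatic ones such as Cxcl12 are made steadily by stromal cells. In injured skeletal muscle the Ccl2 to Ccr2 route is known for bringing monocytes into the tissue, where macrophages clear debris and aid regeneration.

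Values are the deposited signal, an estimated read count that was scaled so that the upper quartile of each library is 1000. The worth of 1 read ranged from 1.25 to 1.68 signal units over DTG mice and from 2.25 to 2.97 over MckrtTA mice, at depths of 46.0 to 54.0 and 45.6 to 58.6 M reads. Akt1 was at 4047 to 5054 in the control libraries and 37986 to 69301 in the DTG libraries, so the transgene followed the labels. Lane 1 of the sequencer held mice 255, 281, 253 and 283, and lane 8 held mice 280, 307, 282 and 306. A pair of libraries stood apart in chemokine genes and are tracked throughout: DTG mouse 253, and MckrtTA mouse 255 for Ccl19. The summed signal of 6 myofiber markers was 3.99e+06 to 8.77e+06 in DTG and 1.52e+07 to 1.74e+07 in MckrtTA libraries (Acta1, Ckm, Myh4, Myh1, Tnnt3 and Pvalb), the defining genes of the labelled tissue.

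Most chemokine genes that could be tested rose in DTG muscle, and the receptors rose with the ligands. Genes with a signal of at least 25 in at least 3 of the 8 libraries were tested with limma on log2(signal + 10), and a gene was called when the Benjamini-Hochberg adjusted p over all tested genes was under 0.005 and the change at least 2-fold. Of 38 members tested, 24 were called higher (17 ligands and 7 receptors), 1 was called lower (Ccl25) and 13 were not called. Over all 15073 genes tested, 14.6% were called higher and 16.0% lower. The members' median log2 fold change was 2.17, beside -0.26 for all tested genes. The filter itself favors genes that rose from a low level, since 14 of the 24 reached a signal of 25 in 3 libraries only with the help of DTG libraries. Of the 20 members that passed on the control libraries alone, 10 were called higher, 1 lower and 9 were not called. The share of all genes called under that condition was not computed, so this count has no background to be read against.

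DTG values lay wholly above the control values in 25 tested members and wholly below in 4 (Ccl25, Ccl27a, Cxcl11 and Cxcr7). Among all tested genes, 22.2% lay wholly above and 40.4% wholly below. With nearly all members tested (a signal above 0 in 1 library), 27 of 54 were called higher and 0 lower, against 10.9% and 11.6% of genes. With 0 lower calls by limma, 4 members were still lower at an unadjusted p under 0.05 (Ccl25, Ccl27a, Cxcl11 and Cxcr7). At a minimum of 3 reads in 3 libraries, 27 of 48 members were called higher and 1 lower, against 13.5% and 14.2% of genes. Scaling the libraries to equal totals moved the log2 fold change of the median tested gene up by 0.92, because the summed signal was 1.91 times higher in MckrtTA libraries. On that scale 28 members were called higher and 0 lower, where 30.8% of genes were higher and 2.00% lower, and 0 members were lower at an unadjusted p under 0.05. Without mouse 253 the counts were 28 higher and 3 lower, against 18.3% and 19.1% of genes. Bulk muscle RNA cannot separate more cells that express a chemokine gene from more transcript in each cell.

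The other 17 members were too low to test, with no signal above 99.4 in any library. The ligands among them were Ccl1, Ccl17, Ccl20, Ccl26, Cxcl2, Cxcl3, Cxcl15, Cxcl17 and Xcl1. Ccr4, Ccr6, Ccr8, Ccr9, Ccr10, Ccr1l1, Cxcr1 and Cxcr5 were the receptors. Ccl26 was at 0 in all 8 libraries.

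The 4 ligands of the monocyte chemoattractant protein group, Ccl2, Ccl7, Ccl8 and Ccl12, were all called higher, from a signal of at most 62.3 in any control to at least 276 in every DTG mouse. Values below are listed for MckrtTA mice 255, 280, 281 and 307 and for DTG mice 253, 282, 283 and 306, in those orders. Ccl2 (chr11:82035577-82037452, mm10), the main ligand of Ccr2, stood at 37.1, 4.49, 11.5 and 17.8 in the controls and 5665, 2013, 1342 and 1351 in the DTG mice. The groups were far apart, and mouse 253 was highest (log2 fold change 6.41 ± 0.50 (SE), adjusted p = 7.85e-06). Without mouse 253 the log2 fold change of Ccl2 was 5.94.

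Ccl7 (chr11:82045712-82047523), which also acts on Ccr2, read 11.6, 8.99, 14.3 and 8.90 in controls and 2715, 1751, 1044 and 1211 in DTG mice. Again the lowest DTG value was far above the highest control (log2 fold change 6.24 ± 0.28 (SE), adjusted p = 7.07e-07). Ccl12 (chr11:82101845-82103399), a mouse ligand of Ccr2, was at 2.32, 4.49, 8.60 and 0 and 276, 1024, 641 and 444. Here mouse 253 was the lowest DTG mouse (log2 fold change 5.33 ± 0.38 (SE), adjusted p = 5.21e-06). Ccl8 (chr11:82115185-82116799), a ligand of Ccr8 in the mouse, had 11.6, 24.7, 25.8 and 62.3 in controls and 562, 5716, 5273 and 8363 in DTG mice. Its value in mouse 253 lay between the controls and the other DTG mice (log2 fold change 6.54 ± 0.77 (SE), adjusted p = 7.08e-05), and the log2 fold change was 7.41 without that mouse.

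**Figure D1:**
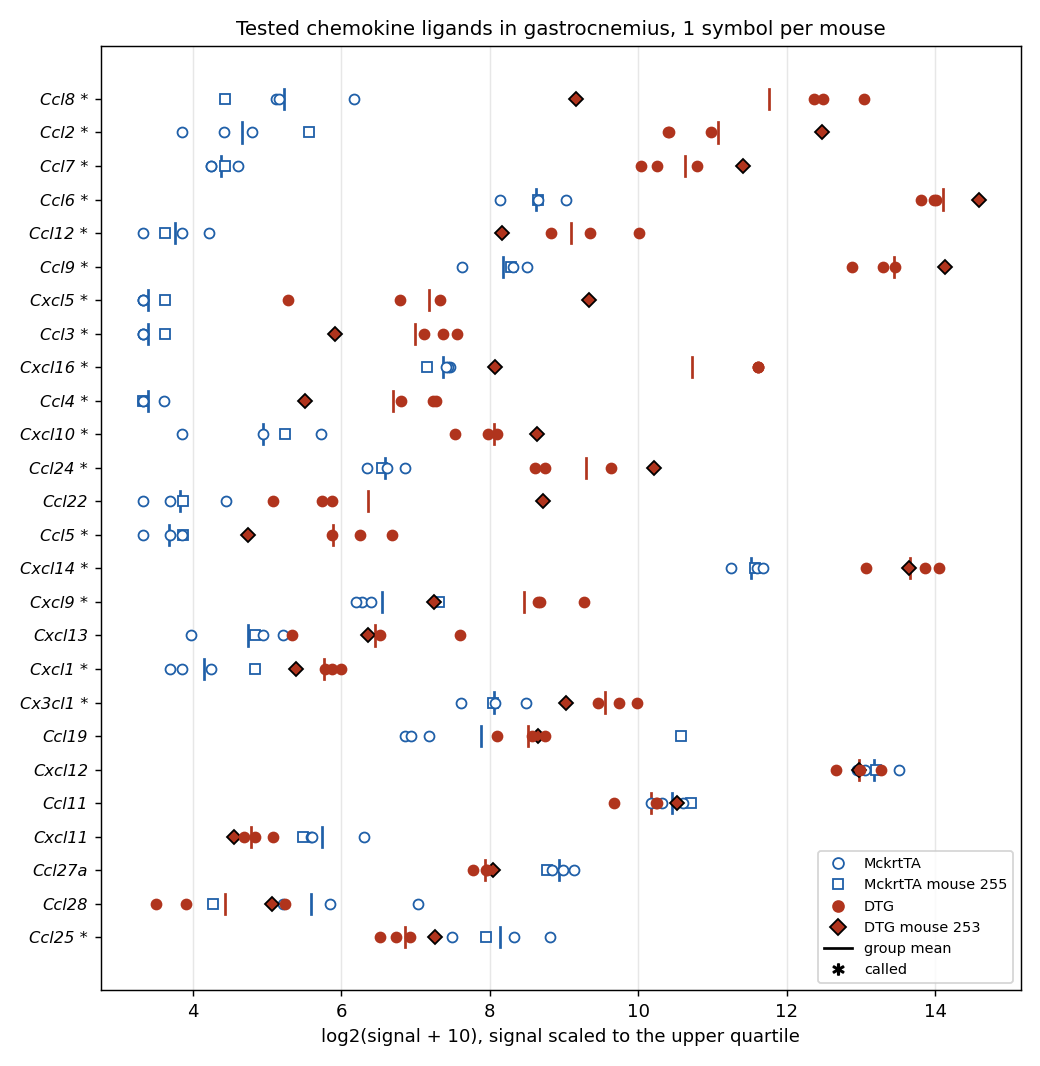
Signal of the 26 tested ligands in each mouse on the log2(signal + 10) scale, with open blue symbols for MckrtTA mice (square, mouse 255), filled red symbols for DTG mice (diamond, mouse 253), a bar at each group mean and an asterisk at each called gene, ordered by log2 fold change. Ccl8, Ccl2 and Ccl7 head the plot, Ccl6, Cxcl14 and Ccl9 have the highest DTG means, and Ccl25 at the foot is the ligand called lower.

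All 5 CC ligands of the macrophage inflammatory protein group (Ccl3, Ccl4, Ccl5, Ccl6 and Ccl9) rose, and Ccl6 and Ccl9 did so from a level already well above the detection limit. Ccl6 (chr11:83587886-83593087), a myeloid cell ligand of Ccr1 found in rodents, was at 392, 391, 513 and 270.0 in controls and 24511, 16506, 16165 and 14314 in DTG mice, a 45.7-fold difference of means (log2 fold change 5.48 ± 0.21 (SE), adjusted p = 4.12e-07). Ccl9 (chr11:83572917-83578636), its neighbor and likewise a Ccr1 ligand, stood at 303, 353, 308 and 187 and 17816, 11259, 9984 and 7530.1, 40.5-fold higher (log2 fold change 5.25 ± 0.27 (SE), adjusted p = 1.26e-06). In both genes mouse 253 was the highest and the other 3 DTG mice lay close together.

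Ccl3 and Ccl4, which attract monocytes and T cells, were nearly absent from controls. Ccl3 was listed at 2.32, 0, 0 and 0 in controls and at 50.5, 179, 154 and 129 in DTG mice (log2 fold change 3.59 ± 0.36 (SE), adjusted p = 2.71e-05). For Ccl4 the values were 0, 2.25, 0 and 0 and 35.4, 145, 139.8 and 102 (log2 fold change 3.31 ± 0.39 (SE), adjusted p = 6.95e-05). Ccl5, a T cell and monocyte attractant, was lower still, at 4.64, 4.49, 2.87 and 0 and 16.8, 65.8, 48.8 and 92.7 (log2 fold change 2.20 ± 0.40 (SE), adjusted p = 0.000965). In these 3 genes mouse 253 was the lowest DTG mouse, at less than the lowest of the others by over 2-fold.

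The eosinophil attractants parted. Ccl24 (chr5:135569937-135573043), a Ccr3 ligand made by macrophages, read 83.5, 87.6, 106 and 71.2 in controls and 1172, 786, 379 and 417 in DTG mice, 7.9-fold higher (log2 fold change 2.71 ± 0.34 (SE), adjusted p = 9.87e-05). Ccl11, eotaxin, another Ccr3 ligand, was already abundant in controls and overlapped between groups, at 1661, 1263, 1544 and 1139 and 1455, 1211, 804 and 1195 (log2 fold change -0.28 ± 0.19 (SE), adjusted p = 0.219). The sign of that small difference depends on the scaling, since with equal totals the log2 fold change of Ccl11 was 0.66. The eosinophil granule genes Epx and Prg2 did not exceed a signal of 2.63 in any library. Siglec5, the 1 eosinophil marker that could be tested, was called higher (log2 fold change 1.85 ± 0.32 (SE), adjusted p = 0.000618). Its signal was at most 4.64 in controls and 18.5 to 50.0 in DTG mice, so it could be tested only through the DTG libraries. The summed signal of 4 eosinophil markers was 5.93 to 12.3 in controls and 32.98 to 78.6 in DTG mice.

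Ccl17 and Ccl22, the ligands of Ccr4, had their highest values in mouse 253. Ccl22, a dendritic cell and macrophage product, stood at 4.64, 0, 2.87 and 11.9 in controls and 409, 43.4, 23.7 and 48.9 in DTG mice. The groups did not overlap, but the gene was not called (log2 fold change 2.52 ± 0.70 (SE), adjusted p = 0.0101), and without mouse 253 it was called, with a log2 fold change of 1.73. With equal totals Ccl22 was called higher too (log2 fold change 3.08). Ccl17 was too low to test, at 0, 4.49, 17.2 and 2.97 and 99.4, 10.5, 3.96 and 10.03.

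The neutrophil attractants of the ELR CXC group, ligands of Cxcr2, appeared in DTG muscle at low levels. Cxcl5 was the most marked, at 2.32, 0, 0 and 0 in controls and 638, 150.0, 100.3 and 28.8 in DTG mice (log2 fold change 3.78 ± 0.70 (SE), adjusted p = 0.00106). Mouse 253 was highest, and without it the log2 fold change was 3.06. Cxcl1 was at 18.6, 4.49, 2.87 and 8.90 and 32.0, 53.9, 44.9 and 48.9 (log2 fold change 1.61 ± 0.30 (SE), adjusted p = 0.00114), and the call was lost without mouse 282 (adjusted p = 0.00532).

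Cxcl2 and Cxcl3 were listed at 0 in every control and had signal in every DTG mouse, 48.8, 43.3, 21.1 and 22.6 for Cxcl2 and 55.6, 9.36, 1.32 and 3.76 for Cxcl3. Both fell under the level required for testing, and Cxcl2 was called at the minimum of 3 reads in 3 libraries. Cxcl15, a ligand known mainly from lung, had no signal above 1.32. The 4 neutrophil markers that could be tested (S100a8, S100a9, Csf3r and Retnlg) were all called higher, with S100a8 at 6.96, 6.74, 17.2 and 8.90 in controls and 463, 207, 199 and 91.5 in DTG mice. Summed over 6 neutrophil markers, the signal was 41.6 to 80.4 in controls and 1584 to 2364 in DTG mice, with Mpo and Elane never above 7.52 (their part in the chemokine values was not tested).

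NF-kB is a known inducer of several CXC ligands, and the members' promoters were read for its motif. RefSeq promoter windows of 300 bases (250 before and 50 after the gene start, GRCm38.p6) were found for 39 of the 55 members. The letters GGGNNTTNCC, on either strand, occurred in 9 of the 39 and in 4.71% of 27025 promoters. They occurred in 5 of the 15 members called higher that had a window (Ccl9, Ccr3, Cxcl1, Cxcl9 and Cxcl10) and in 4 of the other 24 (Ccl19, Ccl20, Cxcl2 and Cxcl3). The 150 bases before the start of the CXC ligands that hold the motif are shown to let the matches be placed beside the values, in lower case with the matches in capitals, 5′ to 3′ on the strand of the gene.
Cxcl1 (chr5:90891095-90891244, plus strand): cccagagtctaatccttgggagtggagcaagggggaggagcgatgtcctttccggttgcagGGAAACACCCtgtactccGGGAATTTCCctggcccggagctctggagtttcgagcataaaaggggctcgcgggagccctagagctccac
Cxcl2 (chr5:90903749-90903898, plus strand): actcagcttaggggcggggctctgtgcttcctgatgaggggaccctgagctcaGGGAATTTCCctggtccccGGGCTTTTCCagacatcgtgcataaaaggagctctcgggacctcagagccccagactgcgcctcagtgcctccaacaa
Cxcl3 (chr5:90785951-90786100, plus strand): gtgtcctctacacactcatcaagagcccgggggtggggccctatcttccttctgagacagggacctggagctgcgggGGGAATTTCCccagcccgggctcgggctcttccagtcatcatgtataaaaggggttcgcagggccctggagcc
Cxcl9 (chr5:92328080-92328229, minus strand): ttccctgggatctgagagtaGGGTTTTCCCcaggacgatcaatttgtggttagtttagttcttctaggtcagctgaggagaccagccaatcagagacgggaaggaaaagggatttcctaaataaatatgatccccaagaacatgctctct
Cxcl10 (chr5:92348890-92349039, minus strand): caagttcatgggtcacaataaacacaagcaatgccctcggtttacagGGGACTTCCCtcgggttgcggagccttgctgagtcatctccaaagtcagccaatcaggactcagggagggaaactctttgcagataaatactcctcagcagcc
Cxcl1 and Cxcl2 each held 2 matches and the others 1. Of the matches, the first in Cxcl1 reads on the opposite strand. Cxcl1, Cxcl2 and Cxcl3 shared the same 10 letters at one match, gggaatttcc. A match is a description of the letters only.

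Other motifs were searched in the same way. TGANTCA, the AP-1 type motif, which is the same on both strands, was found in 7 of the 39 members and 7.93% of all promoters. AGGAAGT, a PU.1 type motif of myeloid genes, was in 9 members and 9.57% of promoters, and in 2 of the 15 that were called higher (Ccl6 and Ccl12). GAAANNGAAA, an interferon response type motif, was in 3 members (Ccl19, Cxcl10 and Cxcl14) and 3.49% of promoters. TATAAA was in 11 members and 14.2% of promoters. No match of 1 motif overlapped a match of another (0 overlaps in the 39 windows).

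The interferon-inducible ligands of Cxcr3 split. Cxcl10 (chr5:92346639-92348889), which draws activated T cells, was at 27.8, 4.49, 43.0 and 20.8 in controls and 387, 264, 175 and 242 in DTG mice with no overlap (log2 fold change 3.12 ± 0.40 (SE), adjusted p = 0.000109). Cxcl9 read 148, 67.5, 63.0 and 74.2 and 141, 397, 392 and 605. It was called (log2 fold change 1.91 ± 0.42 (SE), adjusted p = 0.00287), but mouse 253 lay under control mouse 255, and leaving out any 1 of mice 280, 281, 307, 282, 283 or 306 lost the call, with adjusted p up to 0.0106. Cxcl11 had its lower values in the DTG mice, at 34.8, 38.2, 68.8 and 38.6 in controls and 13.5, 15.8, 18.5 and 23.8 in DTG mice, and was not called (log2 fold change -0.96 ± 0.26 (SE), adjusted p = 0.00797). With equal totals the log2 fold change of Cxcl11 was -0.26, so the size of this difference depends on the scaling. The Cxcl11 row carries a noncoding RefSeq transcript record.

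Among the remaining CXC and CX3C ligands, the 2 with the largest share of control ligand signal per transcript length behaved differently. Cxcl12 (9405, 8498, 11642 and 7829.9 in controls, 7992, 8073, 9820.5 and 6449.7 in DTG mice), the stromal ligand of Cxcr4 and Cxcr7, overlapped between groups (log2 fold change -0.21 ± 0.16 (SE), adjusted p = 0.258). With equal totals its log2 fold change was 0.74, so its direction is not fixed by these data. Cxcl14 (chr13:56288643-56296551), a chemokine of epithelia and connective tissue, rose from 3029.7, 3074, 3264 and 2415 to 12844, 16858, 14836 and 8529, 4.5-fold (log2 fold change 2.13 ± 0.20 (SE), adjusted p = 2e-05).

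Cxcl16 (chr11:70454234-70459984), a membrane-bound chemokine and scavenger receptor of macrophages, showed the sharpest split among DTG mice. It was at 132, 166, 163 and 160.2 in controls and at 258, 3108, 3121 and 3118 in DTG mice. The range over mice 282, 283 and 306 was 0.433% of their mean, while mouse 253 was at less than 2 times the control mean (log2 fold change 3.36 ± 0.72 (SE), adjusted p = 0.00249). Without mouse 253 the log2 fold change was 4.24, and leaving out any other single mouse lost the call, with adjusted p up to 0.00876.

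Cx3cl1, fractalkine, the membrane-bound ligand of Cx3cr1, was at 253, 258, 186 and 350.1 in controls and 510.2, 999, 847 and 693 in DTG mice (log2 fold change 1.497 ± 0.24 (SE), adjusted p = 0.000443). Cxcl13, a B cell attractant, was at 18.6, 27.0, 5.73 and 20.8 and 72.4, 184, 30.3 and 81.5. Its groups did not overlap, and it was not called (log2 fold change 1.71 ± 0.47 (SE), adjusted p = 0.00877). With equal totals Cxcl13 was called higher (log2 fold change 2.43). Cxcl17 was not above 4.49 in any library. Xcl1, a lymphocyte product, was listed at 0 in the controls and at 0, 14.5, 9.23 and 12.5 in DTG mice.

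Of the 4 homeostatic and mucosal CC ligands tested, 0 were called higher by limma (also 0 at an unadjusted p under 0.05) and 1 was called lower. Over all tested genes 14.6% were called higher and 16.0% lower, so counts among 4 genes do not set these ligands apart. Ccl25, the ligand of Ccr9 and a thymus and gut chemokine, read 237, 310.1, 440.3 and 169 in controls and 143, 96.1, 81.8 and 112 in DTG mice (log2 fold change -1.28 ± 0.29 (SE), adjusted p = 0.00316). The call was lost without any 1 of mice 255, 280, 281, 282, 283 or 306 (adjusted p up to 0.0115), and with equal totals the log2 fold change was -0.39 and not called. Ccl27a, a ligand of Ccr10, stood at 427, 447, 551 and 497 and 255, 208, 238 and 239, wholly lower (log2 fold change -0.999 ± 0.13 (SE), adjusted p = 0.000139) and just short of the required 2-fold. With equal totals its log2 fold change was -0.078, and near-identical gene copies make its read assignment uncertain. Ccl28, a mucosal ligand, varied widely within groups, at 9.28, 27.0, 120.3 and 47.5 and 23.6, 27.6, 1.32 and 5.01 (log2 fold change -1.16 ± 0.61 (SE), adjusted p = 0.118). Ccl1 and Ccl20 did not exceed 7.89 in any library.

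Ccl19, a ligand of Ccr7 made by lymphoid stroma, depended on 1 control. It was at 1513, 106, 135 and 113 in controls and 391, 418, 264 and 369 in DTG mice. Control mouse 255 lay far above the rest, and the other 3 controls lay below every DTG mouse. The gene was not called with all mice (log2 fold change 0.63 ± 0.74 (SE), adjusted p = 0.468), and without mouse 255 it was called higher, with a log2 fold change of 1.52 and adjusted p = 0.000336. The Ccl19 row lists 6 loci of near-identical sequence, which makes its assignment uncertain too. In the same control library, interferon-inducible genes chosen after their values were seen were also high, with Tgtp1 at 2226 against 172 to 370.3, Gbp4 at 5664 in mouse 255 against 658 to 1238 in the other 3 controls, and Iigp1 at 3449 against 546 to 1117. Iigp1 was also at 1448 to 2390 in the DTG mice. Cxcl9 too was highest of the controls in mouse 255. Of the other interferon-inducible ligands, Cxcl10 was not highest there (27.8, against 43.0 in mouse 281), and Cxcl11 was at its lowest control value (34.8). A summed signal of 4 B cell markers was 81.2 in mouse 255, the highest of the controls, in which it ranged from 17.2 upward (their part in the Ccl19 value was not tested).

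The receptors carried by monocytes and macrophages rose with few exceptions. Of 8 myeloid receptor genes, 6 were tested and 5 were called higher, where 14.6% of all tested genes were. Ccr1 and Ccr3 reached the level required for testing only with the help of DTG libraries. Ccr2 (239, 139, 189 and 160.2 in controls, 11368, 6606, 10437 and 5649 in DTG mice), the receptor of inflammatory monocytes, was 46.9-fold higher (log2 fold change 5.44 ± 0.25 (SE), adjusted p = 7.07e-07). Ccr1, a receptor of monocytes and neutrophils, was at 41.8, 11.2, 63.0 and 20.8 and 3539.8, 2889, 2388 and 1347 (log2 fold change 5.92 ± 0.41 (SE), adjusted p = 4.58e-06). All DTG values of both receptors were above all control values.

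Cx3cr1, the fractalkine receptor of patrolling monocytes and tissue macrophages, was at 41.9, 51.7, 34.4 and 29.7 in controls and 392, 1625, 2960.4 and 1784 in DTG mice (log2 fold change 4.81 ± 0.52 (SE), adjusted p = 4.42e-05). Mouse 253 was the lowest DTG mouse, and the log2 fold change was 5.40 without it. Ccr3, known from eosinophils, was at 2.32, 0, 0 and 2.97 and 40.4, 113, 103 and 89.0 (log2 fold change 3.02 ± 0.32 (SE), adjusted p = 3.54e-05). Cxcr2, the neutrophil receptor of the ELR ligands, overlapped between groups, at 170.3, 109, 155 and 134 and 485, 166, 158 and 122 (log2 fold change 0.48 ± 0.38 (SE), adjusted p = 0.277), and only mouse 253 stood above the controls. The outcome for Cxcr2 depends on the scaling, since with equal totals it was called higher (log2 fold change 1.37, limma adjusted p = 0.00376). Its partner Cxcr1 was listed at 0 in all libraries except mouse 253 (3.37), and Ccr1l1 was not above 23.8.

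**Figure D2:**
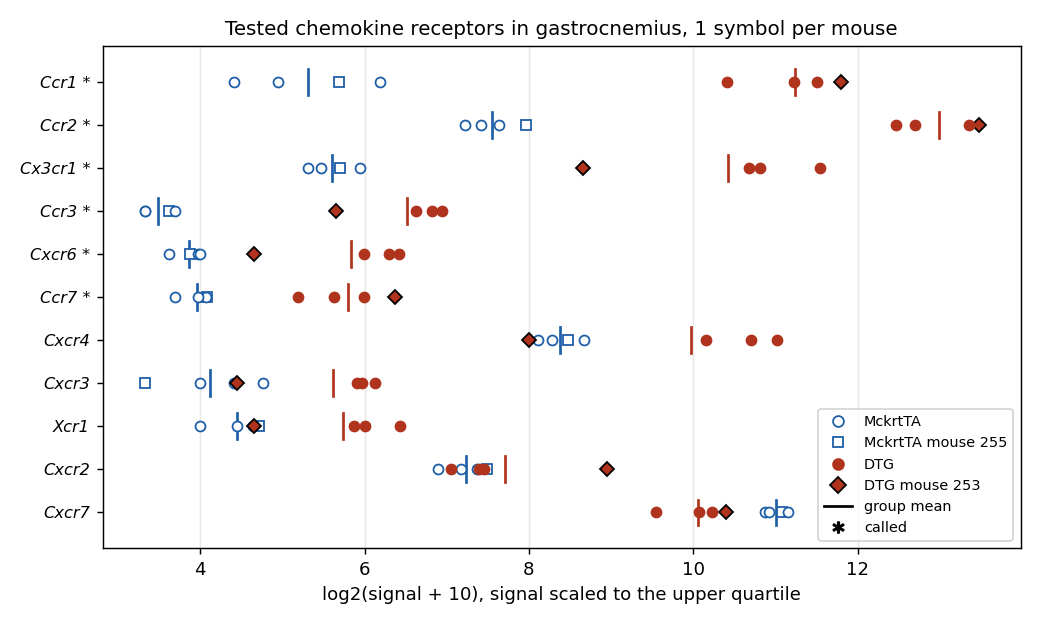
Signal of 11 tested receptors in each mouse on the log2(signal + 10) scale, with open blue symbols for MckrtTA mice (square, mouse 255), filled red symbols for DTG mice (diamond, mouse 253), a bar at each group mean and an asterisk at each called gene. Ccr1 and Ccr2 separate fully, whereas mouse 253 falls among the controls for Cxcr3 and Xcr1, below them for Cxcr4 and above every other mouse for Cxcr2.

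Receptors of lymphocytes and dendritic cells were low. Ccr7, which guides dendritic cells and naive T cells to lymph nodes, was at 6.96, 6.74, 5.73 and 2.97 in controls and 72.4, 39.5, 26.4 and 53.9 in DTG mice (log2 fold change 1.84 ± 0.29 (SE), adjusted p = 0.000419). Cxcr6, the receptor of Cxcl16 on T and NK cells, was at 4.64, 2.25, 5.73 and 5.93 and 15.2, 68.4, 75.2 and 53.9 (log2 fold change 1.98 ± 0.39 (SE), adjusted p = 0.00148), and the call was lost without any 1 of mice 280, 282, 283 or 306 (adjusted p up to 0.00628). Cxcr3 (0, 11.2, 17.2 and 5.93 and 11.8, 50.0, 52.8 and 60.2) and Xcr1 (16.3, 15.1, 11.8 and 5.93 and 15.2, 48.3, 54.0 and 76.0), the latter a marker of cross-presenting dendritic cells, were not called (log2 fold change 1.49 ± 0.45 (SE), adjusted p = 0.0145 for Cxcr3 and log2 fold change 1.29 ± 0.38 (SE), adjusted p = 0.0139 for Xcr1). In both, mouse 253 lay within the control range, and without it both were called, with log2 fold changes of 1.88 and 1.65. With equal totals Xcr1 was called higher (log2 fold change 1.96) and Cxcr3 was not (2.11).

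The untested receptors were not above 43.0 in any library. Ccr9, the receptor of Ccl25, was at 2.32, 6.74, 0 and 2.97 and 8.42, 23.7, 22.4 and 43.0, and Ccr8, a receptor of Ccl8 in the mouse, was listed at 0 in controls and at 1.68, 11.8, 14.5 and 10.03 in DTG mice. Ccr6 likewise was listed at 0 in controls and at 5.05, 5.26, 5.28 and 8.77 in DTG mice. Ccr4, Ccr10 and Cxcr5 did not exceed 9.46.

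Neither receptor of Cxcl12 was called. Cxcr4 was at 346, 398, 266 and 299.7 in controls and 246, 1126, 1659.5 and 2058 in DTG mice. Mouse 253 lay below every control and the other DTG mice above, and the gene was not called (log2 fold change 1.58 ± 0.56 (SE), adjusted p = 0.0306) unless mouse 253 was left out (log2 fold change 2.24). Cxcr7, the scavenging receptor now named Ackr3, was lower in every DTG mouse, at 2162, 1872, 2266 and 1926 and 1340.5, 1193, 735 and 1065, with an adjusted p under the threshold and a change short of 2-fold (log2 fold change -0.95 ± 0.18 (SE), adjusted p = 0.00105). With equal totals the log2 fold change of Cxcr7 was -0.0050, so this difference depends on the scaling.

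Set against their receptors, the ligands fell into a few patterns. Ccr2 and its ligands Ccl2, Ccl7 and Ccl12 were all called higher, with log2 fold changes of 5.44, 6.41, 6.24 and 5.33. Ccr1 was called, as were its ligands Ccl3, Ccl5, Ccl6 and Ccl9. For Cxcr2 the ligands Cxcl1 and Cxcl5 were called and the receptor was not, although with equal totals Cxcr2 was called higher too (log2 fold change 1.37). Of the 3 ligands of Cxcr3, 2 were called and the receptor was not. Ccl25 was called lower while Ccr9 was too low to test, and neither Cxcl12 nor its receptors were called.

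The make-up of the ligand signal differed between the groups. Summed over the 35 ligands the signal was 16428 ± 2567 (SD, n = 4) in MckrtTA and 68008.5 ± 9633 in DTG mice, 4.14 times as much, and as a share of all signal it was 8.01 times as much. For the 20 receptors the sums were 2849 ± 238 and 19765 ± 3512, 6.94 times as much. To compare genes, each signal was divided by transcript length (GENCODE M21) and expressed as a share of the summed ligand signal per kb. On that scale the share of Cxcl12 was 32.2% ± 3.66 (SD, n = 4) in controls and 4.87% ± 0.951 in DTG mice. Ccl11 had 15.8% ± 0.128 and 2.28% ± 0.448, and Ccl27a had 12% ± 2.54 and 1% ± 0.117. Cxcl14 was at 19.8% ± 2.41 and 15.4% ± 3.78. The share of Ccl6 was 3.3% ± 0.574 in controls and 26.3% ± 5.6 in DTG mice, and that of Ccl9 1.17% ± 0.291 and 8.15% ± 2.7. Ccl8 had 0.82% ± 0.702 and 21.2% ± 14.3, and Ccl2 0.257% ± 0.177 and 6.63% ± 5.01. These are shares within a library, so the share of Cxcl12 differed although its own level overlapped between groups, and no test was run on them. The share of Ccl8 was 2.23% in mouse 253 and 22.3% to 36.9% in the other DTG mice.

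**Figure D3:**
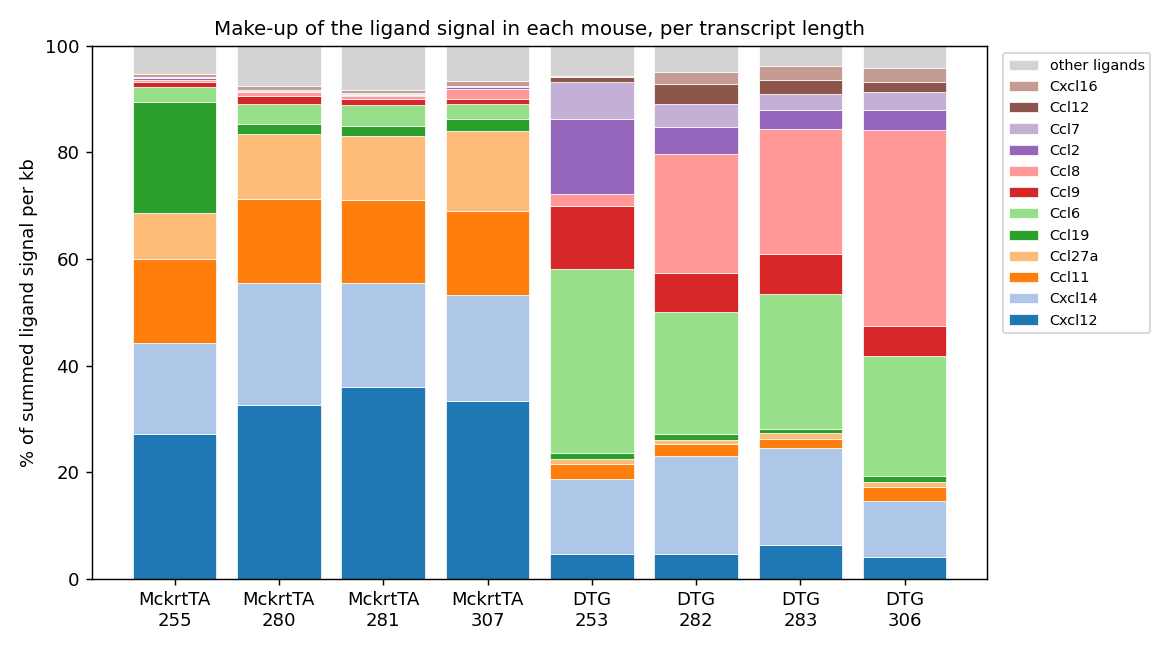
Share of the summed ligand signal per kb of transcript taken by 12 ligands in each of the 8 mice, with the other 23 ligands in grey. Cxcl12, Cxcl14, Ccl11 and Ccl27a make up most of each control bar, Ccl19 is visible in control mouse 255, and Ccl6, Ccl8, Ccl9, Ccl2 and Ccl7 fill the DTG bars, with little Ccl8 in mouse 253.

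Many chemokine genes sit in clusters, and neighbors in a cluster did not move alike. On chromosome 11, Ccl2, Ccl7, Ccl12 and Ccl8 lie within 79.6 kb and had log2 fold changes of 5.33 to 6.54. Ccl11 starts 22.3 kb into the same stretch, between Ccl7 and Ccl12, and had -0.28. In the second cluster on chromosome 11, Ccl9 and Ccl6 (5.25 and 5.48) lay between Ccl5 (2.20) and the pair Ccl3 and Ccl4 (3.59 and 3.31). On chromosome 5, Cxcl10 (3.12, and 3.90 with equal totals) lies 12.9 kb from Cxcl11 (-0.96, and -0.26 with equal totals). On chromosome 9, 7 receptor genes start within 424.1 kb, of which Ccr1, Ccr3 and Ccr2, at one end, had 3.02 to 5.92, and Cxcr6 and Xcr1 had 1.98 and 1.29.

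**Figure D4:**
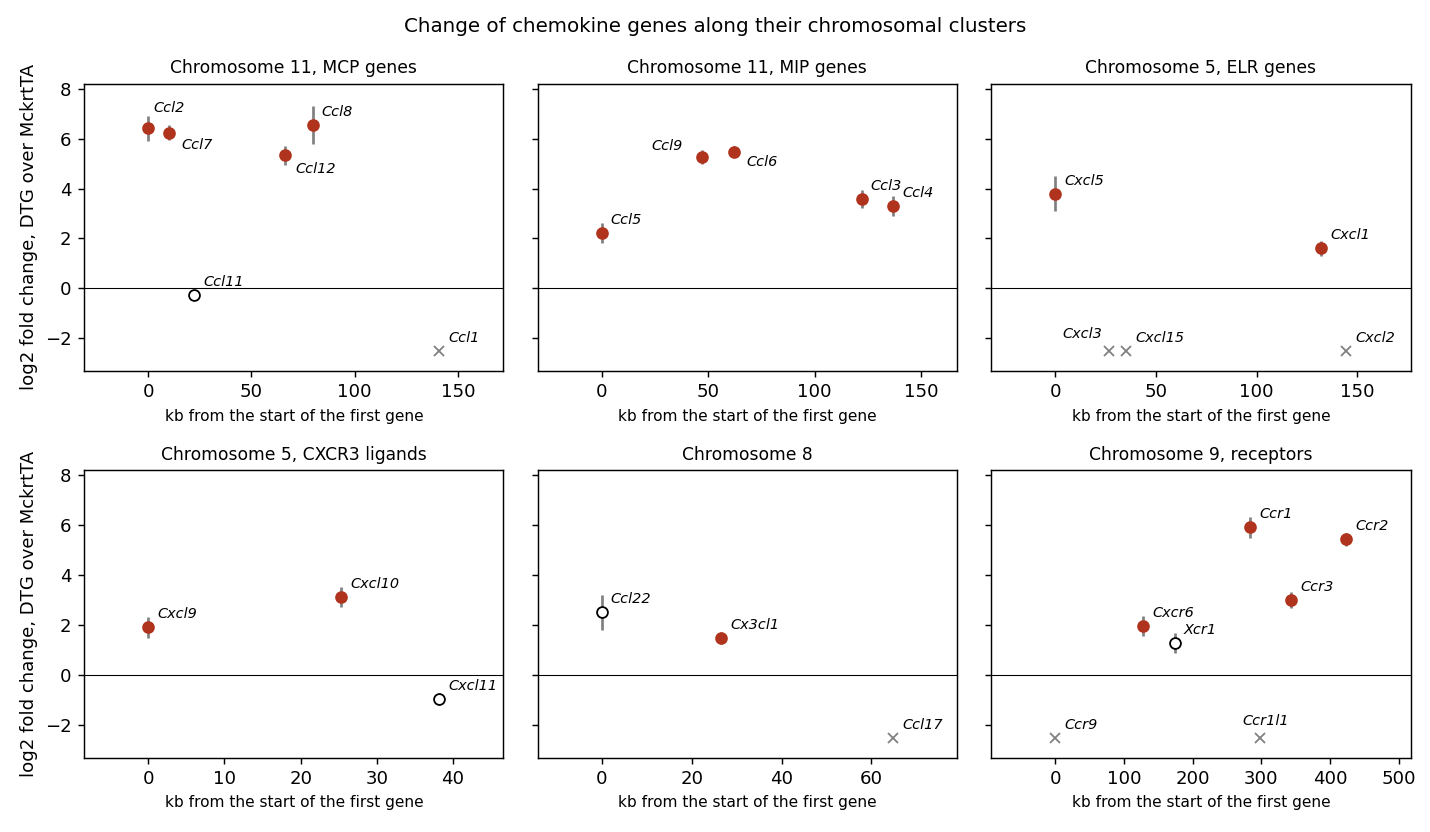
Log2 fold change (DTG over MckrtTA, bars are SE) of chemokine genes by distance in kb from the start of the first gene of 6 chromosomal clusters, with filled points for genes called higher, open points for genes not called and crosses, placed at the foot, for genes too low to test. Ccl11 (-0.28) lies among neighbors above 5, and Cxcl11 (-0.96) beside Cxcl10 (3.12).

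DTG mouse 253 lay outside the range of the other DTG mice for most chemokine genes. Of 41 members with a signal of at least 25 in some DTG mouse, mouse 253 lay above the other 3 DTG mice in 19, below them in 16 and within their range in 6. It exceeded the highest of them by over 2-fold for 6 members, Ccl2, Ccl17, Ccl22, Cxcl3, Cxcl5 and Cxcr2. It was under the lowest by over 2-fold for 13, among them Cxcl16 (258 against 3108 to 3121), Ccl8 (562 against 5273 to 8363), Cxcr4 (246 against 1126 to 2058) and Cx3cr1 (392 against 1625 to 2960.4). Ccr2 and Ccr1, in contrast, were highest in mouse 253. This is a description of 1 library, with no test.

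Cell markers moved with that split. Summed over 6 neutrophil markers, mouse 253 had 2364 and the other DTG mice 1584 to 1714. Summed over 9 monocyte and macrophage markers, it had 59170 and the others 118529 to 185092. Of these markers, Itgam (10023 against 5175 to 7102) and Ly6c2 (622 against 184 to 265) were highest in mouse 253. The rest of them were lowest in it. T cell markers summed to 72.4 in mouse 253 and 529 to 640 in the others, and NK cell markers to 11.8 and 135.9 to 146. Markers of other cells also set mouse 253 apart, with 5 fibroblast markers at 128124 against 397551 to 587196 and 6 myofiber markers at 8.77e+06 against 3.99e+06 to 4.91e+06. The part of cell content in the profile of mouse 253 was not tested.

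**Figure D5:**
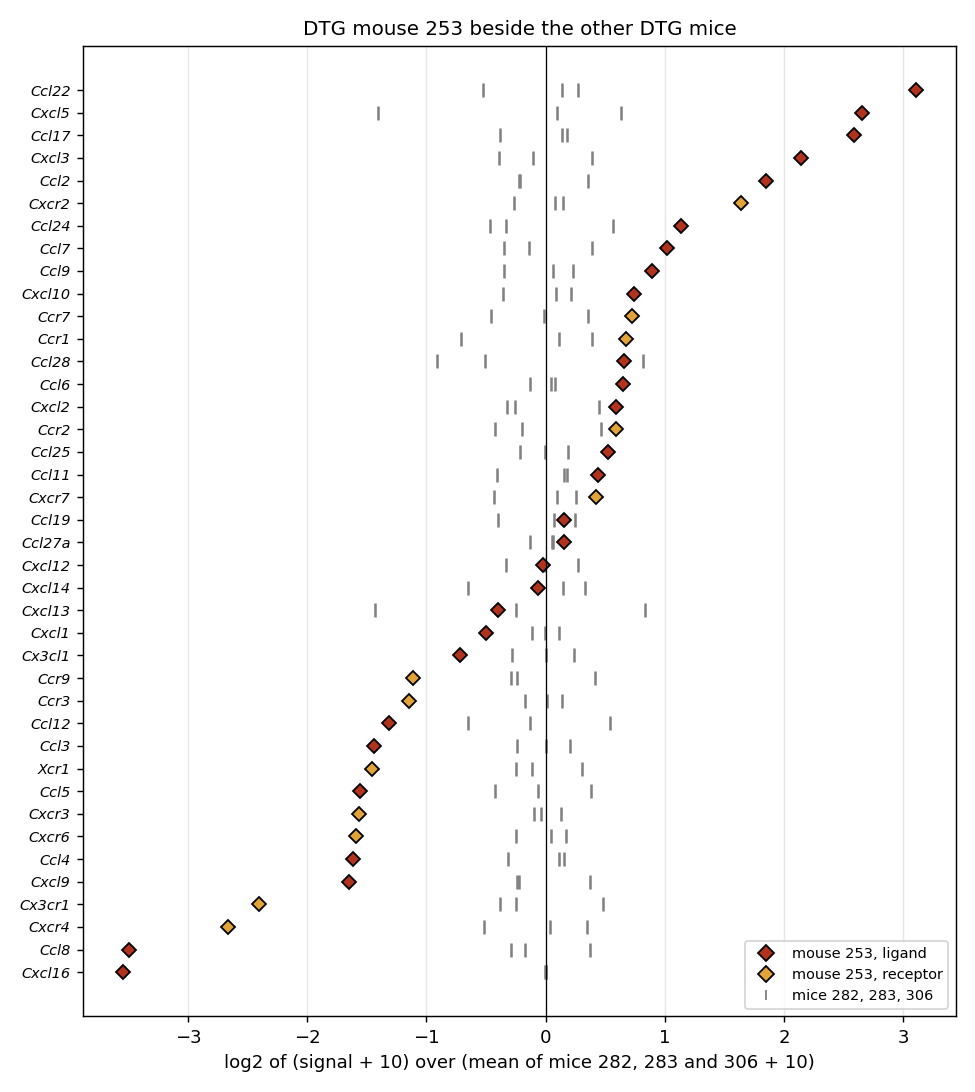
Difference of DTG mouse 253 (diamonds, red for ligands and yellow for receptors) from the mean of DTG mice 282, 283 and 306, as log2 of (signal + 10) over (mean + 10), for 40 of the 41 members with a signal of at least 25 in some DTG mouse. Grey ticks are the 3 other mice, and the genes run from Cxcl16 (-3.55) at the foot to Ccl22 (3.11) at the top.

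Chemokine and chemokine-like genes outside the numbered naming did not all move alike. Of 10 such genes, 6 were called higher and 1 lower, beside 14.6% and 16.0% of all tested genes. Besides the ligands Pf4 and Ppbp, the genes called higher belong to the chemokine-like family, and no atypical receptor was called higher. With equal totals 7 were called higher and 0 lower, beside 30.8% and 2.00%. Pf4, a platelet and macrophage CXC chemokine, was at 237, 243, 287 and 202 in controls and 1593, 3030.3, 3755 and 2109 in DTG mice (log2 fold change 3.32 ± 0.25 (SE), adjusted p = 6.44e-06). Ppbp, a platelet ligand of Cxcr2, was at 16.2, 0, 14.3 and 8.90 and 426, 96.1, 72.6 and 55.1 (log2 fold change 2.75 ± 0.58 (SE), adjusted p = 0.00231) and was again highest in mouse 253. Ccrl2, an atypical receptor that binds chemerin, was called lower, at 828, 1032, 593 and 1620.0 and 402, 267, 216 and 398 (log2 fold change -1.59 ± 0.31 (SE), adjusted p = 0.00148), but not with equal totals (log2 fold change -0.66, limma adjusted p = 0.0758). Darc, Ccbp2 and Ccrl1, which scavenge chemokines without Gi signaling, were not called, although Darc was called higher with equal totals (log2 fold change 1.58). Cklf, Cmtm3, Cmtm6 and Cmtm7 of the chemokine-like family were called higher.

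Downstream of the receptors, 22 of 38 signaling genes were called higher, 1 lower and 15 not, with a median log2 fold change of 1.62, beside 14.6% and 16.0% of all genes and a median of -0.26. With equal totals, 33 were called higher and 0 lower, with a median of 2.56, beside 30.8% and 2.00% of all genes. Fgr (log2 fold change 5.49 ± 0.16 (SE), adjusted p = 1.67e-07), a kinase of myeloid cells, Rac2 (4.86), the leukocyte Rac GTPase, and Dock2 (4.78) and Vav1 (4.801), which activate Rac, were among the highest. Among widely expressed genes, Gnai2 (1.03) and Gng10 (1.53), subunits of G proteins, were called higher, and Rac1 (-0.56), Cdc42 (0.19) and Gnb2 (0.29) were not. With equal totals Cdc42 (1.14) and Gnb2 (1.24) were called higher too, and Rac1 turned to 0.39 without a call. Pard3, a polarity protein, was the gene called lower (-1.01), a call lost with equal totals (-0.059). Regulators that shut off Gi signals, Rgs1 (3.86) and Rgs14 (3.74), were also called higher.

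Markers of several of the cell types that bear these receptors moved with the chemokine genes. The counts below stand beside 14.6% of all tested genes called higher and 16.0% lower. Of 9 monocyte and macrophage markers, 8 were called higher, with summed signal of 4181 to 5277 in controls and 59170 to 185092 in DTG mice. Fcgr1 (log2 fold change 6.27 ± 0.21 (SE), adjusted p = 2.81e-07) and Cd68 (5.67) led them, and Ly6c2 was not called. Dendritic cell markers were called higher for 5 of 6, and T cell markers for 3 of the 4 tested. NK cell markers gave 0 calls by limma among the 3 tested, also with equal totals, with 3 higher at an unadjusted p under 0.05, and all 3 were called without mouse 253. Their summed signal was 5.71 to 13.9 in controls and 11.8 to 146 in DTG mice. Mast cell markers gave 0 calls by limma among 5, with 2 higher at an unadjusted p under 0.05. With equal totals 2 of the 5 were called higher, where 30.8% of all genes were. Cpa3 was at 78.9, 110.1, 266 and 128 and 123, 495, 332 and 221. Among 5 endothelial markers 1 was called lower, Kdr, and their summed signal was 28194 to 31539 in controls and 18537 to 26565 in DTG mice. With equal totals Kdr was not called (-0.11), and the median log2 fold change of the 5 turned from -0.51 to 0.44. Among 5 fibroblast markers 4 were called higher. How far the cell content accounts for any of the chemokine values was not tested.

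The lanes differed in how many calls they gave alone. Lane 1 alone, with 2 DTG and 2 MckrtTA mice, with mouse 253 among them, called 5 members higher (among them Ccl6, Ccl9, Ccr1 and Ccr2) and 0 lower, where 0.358% of all genes were called higher and 0.0265% lower, and 3 members were lower at an unadjusted p under 0.05. All 24 members called higher with all mice had a log2 fold change above 0 in lane 1 and in lane 8. For all of them but Cxcl9 this was fixed in advance, since their DTG values lay wholly above the control values. It is therefore no separate check of the lanes.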

How the data were processed

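Gastrocnemius poly(A) RNA of 8 mice was sequenced on 2 lanes. The authors removed adaptors with Fastq-Mcf, estimated reads per gene on the mm10 transcriptome with RSEM (BWA is also named in the submitters' processing notes) and deposited a signal scaled so that the 75th percentile of each library is 1000. The signal is not a count, so no count model was used. All 8 sample columns were used (0 left out). The deposited principal component loadings were not used.

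Signal was analysed as log2(signal + 10) with limma 3.58.1 (R 4.3.3, variance trend), without covariates, over 15073 genes at 25 or more in at least 3 libraries, with Benjamini-Hochberg adjustment over all of them. A gene was called at adjusted p under 0.005 and a change of at least 2-fold. Fold changes on this scale understate the change of low genes. Every member is accounted for, with values per mouse for called members at a mean of 100 or more in either group, and other members by value, range or count. Counts include 1 member and 1 signaling gene whose values are not reported here. The fit was tested on simulated data. The members and gene lists were chosen with earlier results of these data known. Mice are separate animals and n is 4 per group, and reads without molecular identifiers are not independent molecules.

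One read was worth 1.25 to 2.97 signal units, and a difference of a few reads is not detectable. Starts in the deposited table count from 0 and were raised by 1 for printing. They are on mm10, the same assembly as RefSeq GRCm38.p6, but can differ from the RefSeq start by a few bases. For Cxcl3 the raised start is 90786103, while the printed RefSeq promoter ends at 90786100. Promoters are from RefSeq (GRCm38.p6) and transcript lengths from GENCODE M21. Alternatives covered the pseudocount, the filter, the scaling, the lanes, the variance trend, the threshold and each library left out.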

Additional observations from a re-analysis of the deposited data

Results flagged for a closer look

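A value far from the rest of its group was found in 9 of 66 groups of 4 mice that reached a signal of 25, by a gap test (Dixon) that flags about 1 group in 20 by chance. In DTG mouse 253, Ccl2 was at 5665 (others 1342 to 2013), Ccl22 at 409 (others 23.7 to 48.9), Ccl17 at 99.4 (others 3.96 to 10.5), Cxcl3 at 55.6 (others 1.32 to 9.36) and Cxcr2 at 485 (others 122 to 165.6), each the highest of its group. Cxcl16 was the lowest there, at 258 (others 3108 to 3121). In MckrtTA mouse 255, Ccl19 was at 1513 (others 105.6 to 134.7) and Cxcl9 at 148 (others 63.0 to 74.2). In MckrtTA mouse 281, Cxcl11 was at 68.8 (others 34.8 to 38.6).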

How the results depend on the processing

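No paired analysis was possible because the labels call the controls littermates but do not say which mice shared a litter. The count of members called higher was 5 in lane 1 alone, against 24, and otherwise stayed within 1.5 times of 24. The count called lower, 1 with all mice, was 2 with a pseudocount of 1, 4 at adjusted p under 0.05 without a fold minimum, and 0 with a signal above 0 in 1 library, with equal totals, with median-of-ratios scaling, in lane 1 alone and, chosen after seeing the data, without mouse 253 and with equal totals. With each library left out in turn the counts were 20 to 28 higher and 0 to 3 lower. The 28 and the 3 came without DTG mouse 253, and the 0 without MckrtTA mouse 281. Of the 25 members called, 5 kept the call under all 21 alternatives that tested them and 17 under all but lane 1. The log2 fold change turned sign only in members that were not called: Ccl11 (0.66 with equal totals, 0.014 with median of ratios, 0.0040 in lane 8, 0.68 without mouse 253 and with equal totals), Cxcl12 (0.74, 0.086 with median of ratios, 0.87 without mouse 253 and with equal totals), Ccl19 (-0.50 in lane 1), and Ccl27a (0.0084) and Cxcr7 (0.010) without mouse 253 and with equal totals. The cause was not tested. Genes at a few reads in controls carry the least certain fold changes.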
